A study of Mus musculus with 13 samples.

Results

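The genes described here were the serpins, cystatins, stefins, kallikreins and Spink inhibitors, which are proteases or protease inhibitors, measured in 2 mouse models of basal cell carcinoma (BCC). They were found by symbol (Serpin, Cst, Stfa, Klk followed by a number, and Spink), which gave 125 of the 21100 genes in the table, and 41 of these were among the 14390 genes tested because they had a value in all 13 tumors and at least 10 counts in at least 4. The 41 comprised 25 serpins, 6 genes with a Cst symbol, 8 kallikreins and 2 Spink genes. One of the Cst symbols, Cstad, names a protein linked to T-cell activation that is not a cystatin. It entered only through its letters.

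The study compared tumors induced in situ with transplanted tumors by poly(A) RNA sequencing, with 1 library per tumor. GEM-BCC denotes 9 intradermal tumors (GEM1 to GEM9) on 7 female Ptch1+/- K14-CreER2 p53fl/fl mice that had been given 3 injections of 300 µg tamoxifen and a single 4 Gy X-ray dose. GEM2 shared its mouse with GEM3, and GEM7 shared one with GEM8. Tp-BCC denotes 4 subcutaneous tumors (TP1 to TP4), each from 2000000 tumor cells placed in the right flank of a female Ptch1+/-p53fl/fl mouse, a strain whose label names no Cre transgene. Both models shared 1 mutant copy of Ptch1, the receptor that restrains Hedgehog signalling, and floxed p53. In the induced tumors Cre acted where the keratinocyte promoter K14 is active. Every Tp-BCC tumor descended from a single GEM-BCC tumor, so the 4 are recipients of 1 lineage, and p-values refer to the spread between these tumors. GEM-BCC libraries formed batch 1 and Tp-BCC libraries batch 2 in the labels, so model and batch cannot be told apart.

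Serpins trap serine proteases by a covalent suicide mechanism, although some members have become chaperones or hormone carriers. Cystatins and stefins block cathepsins and legumain, which are lysosomal cysteine proteases. In the outer epidermis, kallikreins such as Klk5 and Klk7 cut the corneodesmosomes that hold dead cells together, and Spink5 (LEKTI) keeps these enzymes inhibited until the surface is reached.

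Total counts per tumor ranged from 28075317 to 32629102 in GEM-BCC and from 15388027 to 17494912 in Tp-BCC. Levels are given as CPM, which are counts scaled to a common library size, and 3 counts correspond to 0.0857 to 0.109 CPM in GEM-BCC and 0.177 to 0.214 CPM in Tp-BCC. The basal keratinocyte genes Krt5 and Krt14 were abundant in both models, with Krt14 at 1330 to 4378 CPM in GEM-BCC and 918 to 2803 CPM in Tp-BCC. TP2 and TP4 stood apart from TP1 and TP3 by the base composition of the genes they read strongly: across genes, the correlation of a tumor's relative level with GC content was 0.594 and 0.591 in TP2 and TP4 but −0.389 and −0.473 in TP1 and TP3. GEM1 was at 0.365 and the other GEM-BCC tumors were between −0.312 and −0.150. Where leaving out either pair of Tp-BCC tumors ended a pass, the adjusted p without that pair is given with the gene.

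The 8 kallikreins came from 9 genes that follow one another on chromosome 7 in the order Klk13, Klk12, Klk11, Klk10, Klk9, Klk8, Klk7, Klk6 and Klk5 (RefSeq, GRCm38.p6). Only Klk12 was not tested. RefSeq promoters, from 250 bases before to 50 bases after the start, were at hand for 34 of the 41 genes and are not those of the GRCm39 build used for counting. Those of the adjacent genes Klk7, Klk6 and Klk5 are shown because these were the kallikreins that fell in Tp-BCC, and those of Serpini1 and Serpinh1 because they were the serpins of smallest p-value in each direction. Capitals mark a GC box (GGGCGG, either strand) or a CCAAT box (CCAAT, either strand), and every sequence reads 5′ to 3′ on the strand of its gene. Their positions on GRCm38.p6 are chr7:43811044-43811343 (plus strand) for Klk7, chr7:43824294-43824593 (plus) for Klk6, chr7:43842019-43842318 (plus) for Klk5, chr3:75557243-75557542 (plus) for Serpini1 and chr7:99353190-99353489 (minus) for Serpinh1.
Klk7: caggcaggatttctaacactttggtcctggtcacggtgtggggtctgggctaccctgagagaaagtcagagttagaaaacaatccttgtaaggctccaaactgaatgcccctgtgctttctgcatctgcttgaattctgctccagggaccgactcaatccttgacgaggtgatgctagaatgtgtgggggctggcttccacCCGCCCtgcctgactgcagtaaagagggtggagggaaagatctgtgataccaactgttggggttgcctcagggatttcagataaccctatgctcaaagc
Klk6: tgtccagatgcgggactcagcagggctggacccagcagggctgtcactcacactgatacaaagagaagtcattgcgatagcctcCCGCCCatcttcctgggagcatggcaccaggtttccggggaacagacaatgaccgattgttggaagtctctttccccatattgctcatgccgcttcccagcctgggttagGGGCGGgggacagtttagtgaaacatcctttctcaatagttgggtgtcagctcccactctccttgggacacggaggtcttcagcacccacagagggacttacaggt
Klk5: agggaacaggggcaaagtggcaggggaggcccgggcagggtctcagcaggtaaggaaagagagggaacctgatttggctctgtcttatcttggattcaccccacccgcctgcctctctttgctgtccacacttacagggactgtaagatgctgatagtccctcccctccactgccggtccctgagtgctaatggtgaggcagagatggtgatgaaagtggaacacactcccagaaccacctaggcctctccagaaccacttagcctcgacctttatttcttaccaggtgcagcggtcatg
Serpini1: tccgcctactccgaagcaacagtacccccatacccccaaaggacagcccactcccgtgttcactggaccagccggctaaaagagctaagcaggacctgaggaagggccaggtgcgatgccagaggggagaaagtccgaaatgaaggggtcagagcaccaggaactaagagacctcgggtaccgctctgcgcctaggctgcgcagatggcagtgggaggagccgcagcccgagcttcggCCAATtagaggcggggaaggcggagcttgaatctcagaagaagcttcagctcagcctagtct
Serpinh1: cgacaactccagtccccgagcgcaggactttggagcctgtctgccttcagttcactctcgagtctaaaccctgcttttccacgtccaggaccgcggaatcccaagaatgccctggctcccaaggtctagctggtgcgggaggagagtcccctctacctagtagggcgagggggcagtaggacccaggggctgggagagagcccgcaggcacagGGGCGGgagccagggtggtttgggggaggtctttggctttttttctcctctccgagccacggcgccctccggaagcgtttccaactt

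GC boxes stood in the Klk7, Klk6 and Serpinh1 windows and a CCAAT box in that of Serpini1, while the Klk5 window held neither. Of all 32851 promoters of this length, 35.7% held a GC box and 37.4% a CCAAT box, and of the 34 promoters of these families 12 and 13 did. The TATA box letters TATAAA occurred in 3 of the 34 (13.6% of all promoters), the AP-1 letters TGANTCA in 6 (7.81%) and the Grainyhead letters AACNNGTT in 0 (4.20%). These matches are descriptions of the windows, and their part in expression was not tested.

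**Figure D1:**
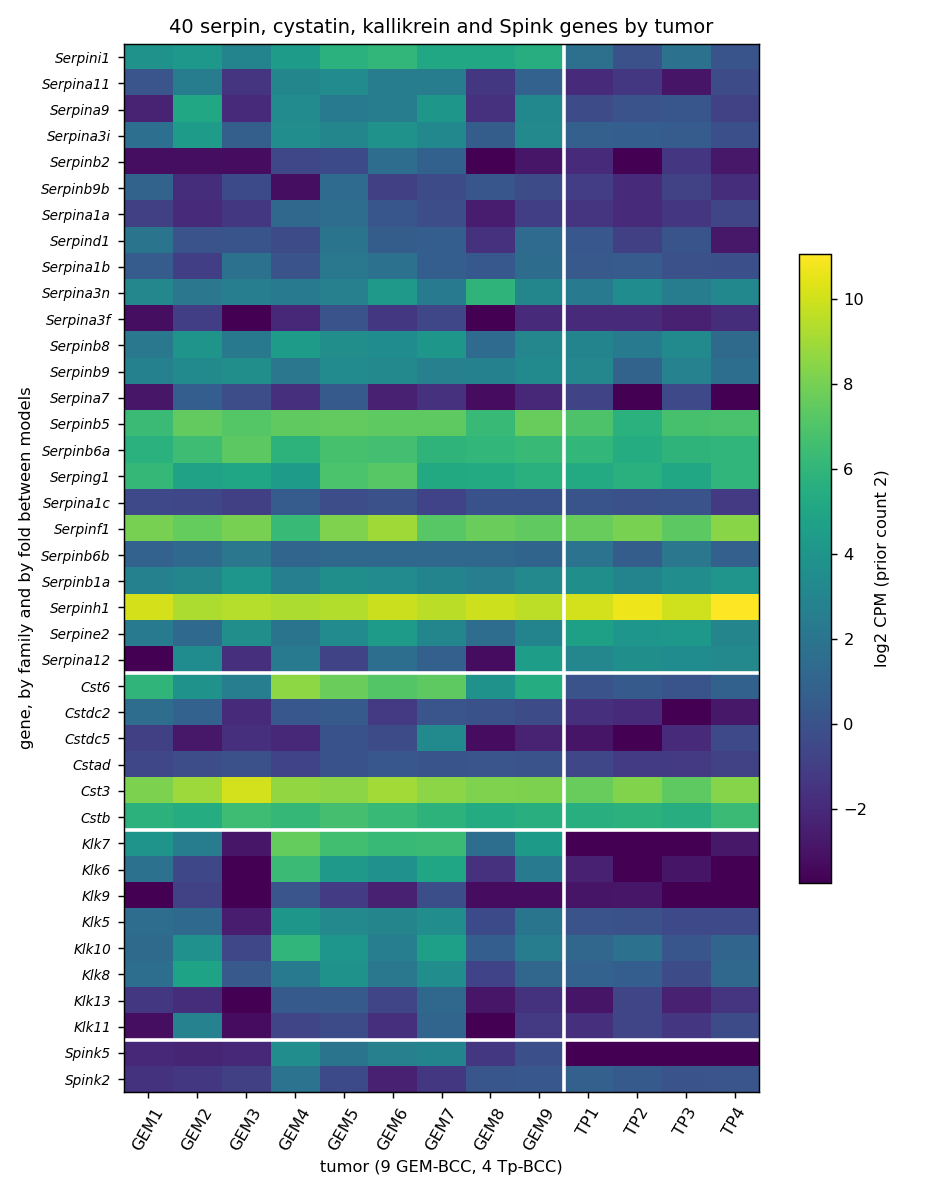
Log2 CPM (color, prior count 2) of 40 genes (rows, by family and then by fold) in 9 GEM-BCC and 4 Tp-BCC tumors (columns). Serpinh1, Cst3 and Serpinf1 are bright in all 13 tumors, whereas Klk7, Klk6 and Spink5 are dark in the Tp-BCC columns and uneven across the GEM-BCC columns.

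Between models, 9 of the 41 genes were lower in Tp-BCC when a call required an adjusted p under 0.05 (edgeR) together with a log2 difference of more than 2 either way, and 0 were higher. An unadjusted p under 0.05 was reached by 15, and DESeq2 called 12 lower and 0 higher. The same call took in 3.21% of all tested genes in the lower and 2.36% in the higher direction. The 9 were the kallikreins Klk5, Klk6 and Klk7, their inhibitor Spink5, the cystatin genes Cst6 and Cstdc2, and the serpins Serpini1, Serpina11 and Serpina3i. Of these 9, Klk6, Klk7, Spink5 and Cstdc2 reached 10 counts in no Tp-BCC tumor. They were kept for their GEM-BCC level alone, which favors calls in the lower direction. Without the fold limit 1 further gene passed, Serpinh1, which was higher, against backgrounds of 8.35% lower and 11.1% higher. The groups did not overlap for 3 genes that were lower (Cst6, Serpini1 and Spink5; background 4.45%) and for 0 that were higher (background 5.5%). In bulk tissue, fewer cells of a type and less RNA per cell cannot be told apart.

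The median log2 fold change of the 41 was −1.01, against −0.03 over all tested genes, and it was below 0 in 33 of them. For 5 genes with 3 counts or fewer in every Tp-BCC tumor, the fold was also replaced by the counting ratio or bound. Each stayed on its side of the median, so the median could not change and this says nothing about the filter. These summaries describe the genes that passed the filter: 11 of the 41 reached 10 counts in no Tp-BCC tumor and were kept for their GEM-BCC level alone, and 22 reached it in all 4.

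**Figure D2:**
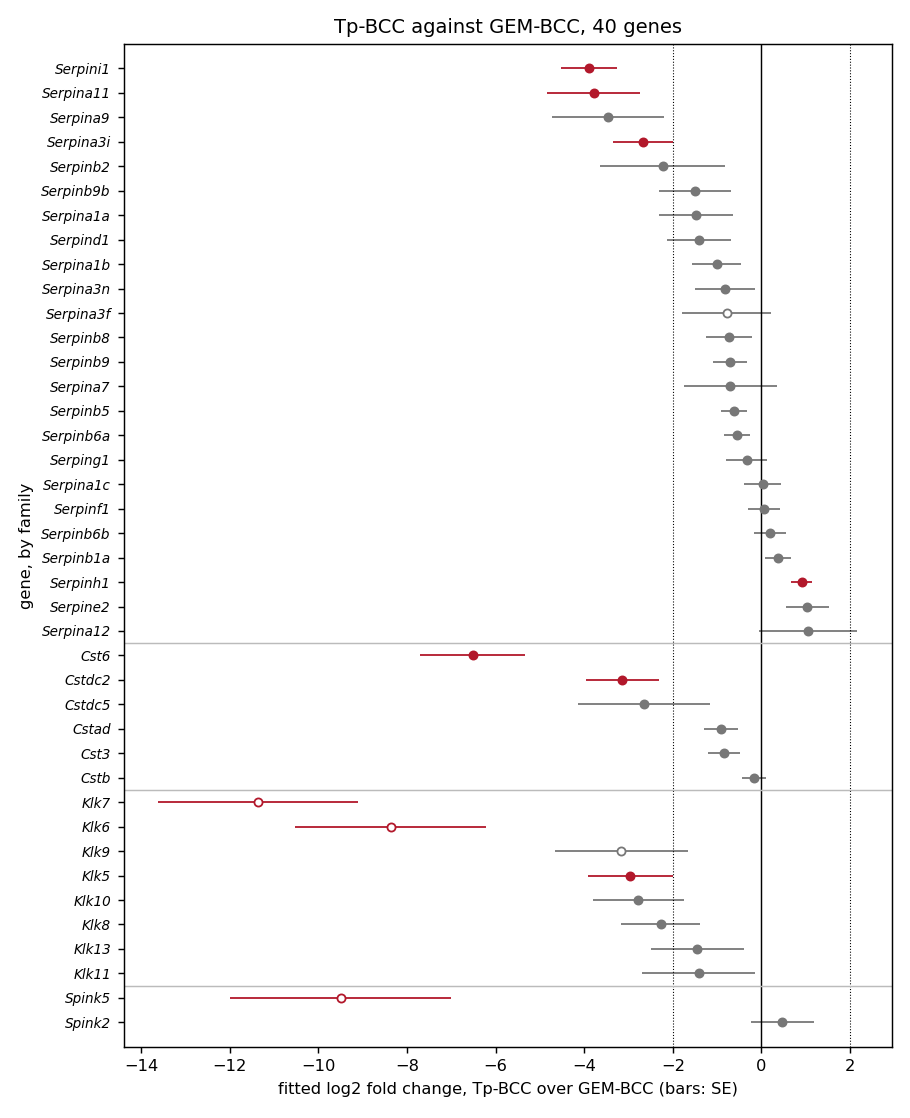
Fitted log2 fold change of Tp-BCC over GEM-BCC (x axis, bars are SE) for 40 genes (y axis, by family). Red marks an adjusted p under 0.05, dotted lines mark ±2, and open points mark genes with 3 counts or fewer in every Tp-BCC tumor, whose fitted value is no bound. All 8 kallikreins and all 6 Cst symbols lie left of 0, and the serpins run from Serpini1 at −3.89 to Serpina12 at 1.05.

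Among the kallikreins, 3 of 8 fell in Tp-BCC and the other 5 did not pass the test. The fitted log2 fold changes of all 8 were below 0 (median −2.87), although that of Klk11 was 0.0138 with the GC trend removed. Klk6, Klk7, Klk9 and Klk13 reached 10 counts in no Tp-BCC tumor. They were kept for their GEM-BCC level alone, which favors folds below 0. Klk7, a chymotrypsin-like enzyme that cuts corneodesmosin, was read at 0.0633 to 189 CPM in GEM-BCC with a median of 20.1 CPM. In the Tp-BCC tumors it had 0, 0, 0 and 1 counts. The 1 read lay in TP4, and the lowest GEM-BCC tumor, GEM3 with 2 counts, was beside the Tp-BCC values. The pooled rate in GEM-BCC was 3483 times that in Tp-BCC (95% exact interval 625.0 to 137573, counting error only; edgeR adjusted p = 0.00309). Without TP2 and TP4 Klk7 did not pass (adjusted p = 0.0663).

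Klk6, a trypsin-like kallikrein of skin and brain, had 0 to 2430 counts in GEM-BCC and 2, 0, 1 and 0 counts in TP1 to TP4. Its pooled rate was 362 times higher in GEM-BCC (95% exact interval 124 to 1756; edgeR adjusted p = 0.0144), yet GEM3 also had 0 counts, so the groups overlapped. Klk6 did not pass without TP2 (adjusted p = 0.0507), without TP2 and TP4 (0.132) or without TP1 and TP3 (0.0596). Klk5, the trypsin-like enzyme that activates Klk7, lay at 0.0949 to 17.2 CPM in GEM-BCC (median 4.04) and at 0.942, 0.900, 0.658 and 0.643 CPM in Tp-BCC. Its log2 fold change was −2.97 ± 0.96 (SE, edgeR adjusted p = 0.0418). GEM3 lay below and GEM8, at 0.671 CPM, within the narrow Tp-BCC values, and this call was lost in 9 of 13 fits that left out 1 tumor (each of GEM4, GEM5, GEM6, GEM7, GEM9 and TP1 to TP4). It was also lost with the GC trend removed (−2.23, adjusted p = 0.0952), without TP2 and TP4 (0.200) and without TP1 and TP3 (0.103).

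The other 5 kallikreins did not pass with each tumor taken as a sample. Klk10, a kallikrein of stratified epithelia, measured 0.601 to 64.1 CPM in GEM-BCC (median 5.92) and 2.18, 3.41, 1.08 and 2.07 CPM in Tp-BCC, with a log2 fold change of −2.78 ± 1.02 (SE) and an edgeR adjusted p of 0.0679. Klk8 (neuropsin) measured 0.511 to 28.7 CPM and 1.82, 1.54, 0.718 and 2.36 CPM, with −2.27 ± 0.90 and an adjusted p of 0.0855. Every Tp-BCC value of these 2 genes lay inside the GEM-BCC range. With counts summed per mouse, which takes the tumors of 1 mouse as 1 sample, both were called lower: Klk10 at −2.90 (adjusted p = 0.0298) and Klk8 at −2.08 (0.0253). Summing merged GEM3 and GEM8, the lowest GEM-BCC tumors for both genes, with the higher GEM2 and GEM7. When single tumors were left out, Klk10 passed only without GEM3 or without GEM8, and Klk8 only without GEM8. The DESeq2 Wald test called Klk10 and Klk8 as well, at −2.81 (adjusted p = 0.0148) and −2.28 (0.0123). Klk11 (log2 fold change −1.42 ± 1.28) and Klk13 (−1.45 ± 1.04) did not pass either. The Klk11 value rested on GEM2: without that tumor it was −0.15, and it was −0.13 by the DESeq2 Wald test. Klk11 reached 7.01 CPM in GEM2 and 2.07 CPM in GEM7 and was under 1 CPM in the other tumors, and Klk13 was highest in GEM7, at 2.35 CPM. Klk9, which like Spink2 was picked after its values were seen, had 0 to 32 counts in GEM-BCC and 1, 1, 0 and 0 in Tp-BCC, a pooled ratio of 9.98 (95% exact interval 2.68 to 83.7; edgeR adjusted p = 0.149).

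Spink5, whose product LEKTI inhibits Klk5 and Klk7, moved the same way as the enzymes. It had 4 to 343 counts in GEM-BCC and 0 counts in each Tp-BCC tumor. In GEM-BCC the mean was 3.41 CPM and the median 0.841 CPM. That mean was at least 17.9 times the Tp-BCC level when 3 counts per library are taken as the floor (edgeR adjusted p = 0.0199). The lowest GEM-BCC tumors, GEM1, GEM2 and GEM3, had 4 or 5 counts (0.145 to 0.164 CPM), a level below the 3-count floor of the Tp-BCC libraries, so the gap to those tumors was not detectable at this depth. Spink5 did not pass without TP2 (adjusted p = 0.0508) or without TP2 and TP4 (0.109). Spink2, an inhibitor known from the sperm acrosome, was at 0.120 to 3.69 CPM in GEM-BCC and at 1.65, 1.29, 0.958 and 1.07 CPM in Tp-BCC, and did not pass (0.47 ± 0.70, adjusted p = 0.667).

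The kallikrein level varied widely among GEM-BCC tumors. Summed over the 8 genes it was 2.06 CPM in GEM3, 6.03 in GEM8, 27.4 in GEM1, 37.9 in GEM9, 58.6 in GEM2, 111 in GEM6, 155 in GEM5, 166 in GEM7 and 358 in GEM4. It was 5.42, 7.07, 2.93 and 6.14 CPM in TP1 to TP4. The Tp-BCC sums thus sat beside GEM3 and GEM8 and below the other 7 induced tumors. GEM4, GEM5 and GEM7 were above the GEM-BCC median in all 8 kallikreins, and GEM1, GEM3, GEM8 and GEM9 in 0. GEM4, GEM5, GEM6 and GEM7 were also the highest tumors for Cst6 and Spink5, outside the chromosome 7 block.

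Markers of suprabasal keratinocytes, the cells that normally make these enzymes, moved with them. Of 14 listed markers 13 were tested, 12 of these had a fold below 0 and 4 were lower in Tp-BCC (Krt10, Krt77, Dsc1 and Dsg1a), with 0 higher. Their summed level was 163 to 657 CPM in GEM-BCC and 85.8 to 122 CPM in Tp-BCC, highest in GEM4 and GEM7 and lowest in GEM3. That gap between the models rested on Dsg1a, which made up 118 of the 163 CPM in GEM3. In the Tp-BCC tumors Dsg1a was at 6.50 to 54.4 CPM. Dsc1 and Krt77 were of low level, reaching at most 4.87 and 4.64 CPM in GEM-BCC and 0.180 and 0.0714 CPM in Tp-BCC. Krt10, the keratin that marks the first suprabasal layer, was at 8.05 to 149.9 CPM in GEM-BCC and 6.18 to 8.64 CPM in Tp-BCC, whereas Casp14, the caspase of cornification, averaged 4.74 CPM in GEM-BCC and 6.94 CPM in Tp-BCC and did not pass. Flg (filaggrin) was not tested. The part of these cells in the kallikrein, Spink5 and Cst6 differences was not tested. Of 6 sebaceous gland markers tested, Krt79 alone fell. Their sum was 185 to 1617 CPM in GEM-BCC and 125 to 297 CPM in Tp-BCC, highest in GEM4, GEM5 and GEM7. Most of the sum in those tumors was Krt79, at 1189, 1320 and 1316 CPM, and Krt79 was at 5.83 to 14.8 CPM in Tp-BCC. The remaining markers, Scd1, Plin2, Awat2, Mgst1 and Pparg, did not pass.

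**Figure D3:**
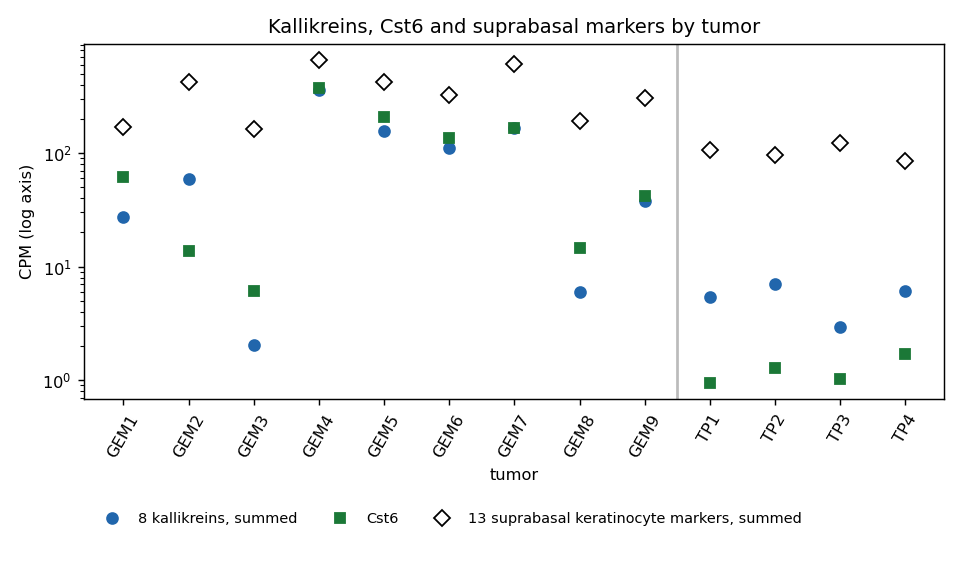
CPM (log axis) per tumor (x axis, GEM-BCC left and Tp-BCC right of the line) of the 8 kallikreins summed, of Cst6 and of 13 suprabasal keratinocyte markers summed. The 3 measures peak in GEM4, and Cst6 stays under 2 CPM in the 4 Tp-BCC tumors while the marker sum is 85.8 to 122 CPM there.

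Genes for proteins that kallikreins cut, or that build the cornified layer, were read next to the enzymes. Of 11 tested genes in a list of cornified envelope, corneodesmosome and related genes, 5 fell and 0 rose. The desmosomal cadherins Dsg1a, Dsg1b and Dsc1 and the transcription factors Grhl1 and Grhl3 were those 5, with Grhl3 at a log2 fold change of −4.74. Dsg1a and Dsc1 were also on the suprabasal marker list. Lor, Tgm1, Tgm3 and Casp14 did not pass. Cdsn, the corneodesmosin that Klk5 and Klk7 cut, was at 3.90 ± 5.44 CPM in GEM-BCC and 1.23 ± 0.148 CPM in Tp-BCC (SD) and did not pass (edgeR adjusted p = 0.256). In a list of skin serine proteases and their receptor 9 genes were tested and 2 fell, the protease Prss27 and the receptor F2rl1. Prss27 was of low level, with means of 0.576 CPM in GEM-BCC and 0.0161 CPM in Tp-BCC. F2rl1 encodes the protease-activated receptor that kallikreins can switch on, and it went from 8.29 ± 3.93 to 1.46 ± 0.666 CPM without overlap (log2 fold change −2.49, edgeR adjusted p = 0.00302). The membrane proteases St14 (matriptase) and Prss8 (prostasin) did not pass.

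Among the Cst genes, 2 of 6 fell and all 6 folds were below 0 (median −1.79). Cst6 (cystatin E/M), the secreted legumain and cathepsin inhibitor of the cornifying epidermis, was separated between the models. It was read at 61.8, 13.8, 6.07, 371, 206, 137, 167, 14.6 and 42.2 CPM in GEM1 to GEM9 and at 0.942, 1.29, 1.02 and 1.71 CPM in TP1 to TP4. Even the lowest induced tumor, GEM3, was above every transplanted one. The log2 fold change was −6.52 ± 1.18 (SE, edgeR adjusted p = 0.00165) and it ranged from −6.77 to −6.03 when single tumors were left out. Cst6 passed the call in all of those 13 fits, with TP2 and TP4 left out (adjusted p = 0.0350) and with TP1 and TP3 left out (0.0140).

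Cstdc2, a cystatin-domain gene of low level, was at 0.190 to 2.86 CPM in GEM-BCC and 0.235, 0.193, 0 and 0.0714 CPM in Tp-BCC, with GEM3 inside the Tp-BCC values (−3.14 ± 0.83, edgeR adjusted p = 0.0160). Without TP2 and TP4 it did not pass (adjusted p = 0.101). Cystatin C (Cst3), the abundant secreted cathepsin inhibitor, lay at 285 to 1056 CPM in GEM-BCC (median 356) and at 194, 305, 168 and 329.8 CPM in Tp-BCC, and did not pass (−0.85 ± 0.35, adjusted p = 0.102). It passed with the GC trend removed (−1.06, adjusted p = 0.0163). Stefin B (Cstb), the cytosolic cathepsin inhibitor, overlapped throughout, at 42.0 to 103 and 44.5 to 82.6 CPM. Cstdc5 was under 1 CPM in 12 of 13 tumors and at 9.64 CPM in GEM7, and Cstad was between 0.359 and 1.14 CPM everywhere.

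A list of cysteine proteases held the cathepsins and legumain, which cystatins inhibit, and the calpains Capn1 and Capn2. Of its 13 genes 12 were tested and 3 fell without reaching the fold limit, with 0 higher. These were cathepsin F (Ctsf, 182 ± 37.8 to 55.1 ± 25.8 CPM, SD), cathepsin H (Ctsh, 35.3 ± 18.5 to 10.6 ± 2.95 CPM) and cathepsin K (Ctsk, 348 ± 155 to 128 ± 33.1 CPM). Legumain (Lgmn), the enzyme that Cst6 inhibits, averaged 108 ± 18.5 CPM in GEM-BCC and 103 ± 10.5 CPM in Tp-BCC (SD, log2 fold change −0.06, edgeR adjusted p = 0.825). Cathepsin L (Ctsl) was at 113 ± 37.0 and 121 ± 36.2 CPM.

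**Figure D4:**
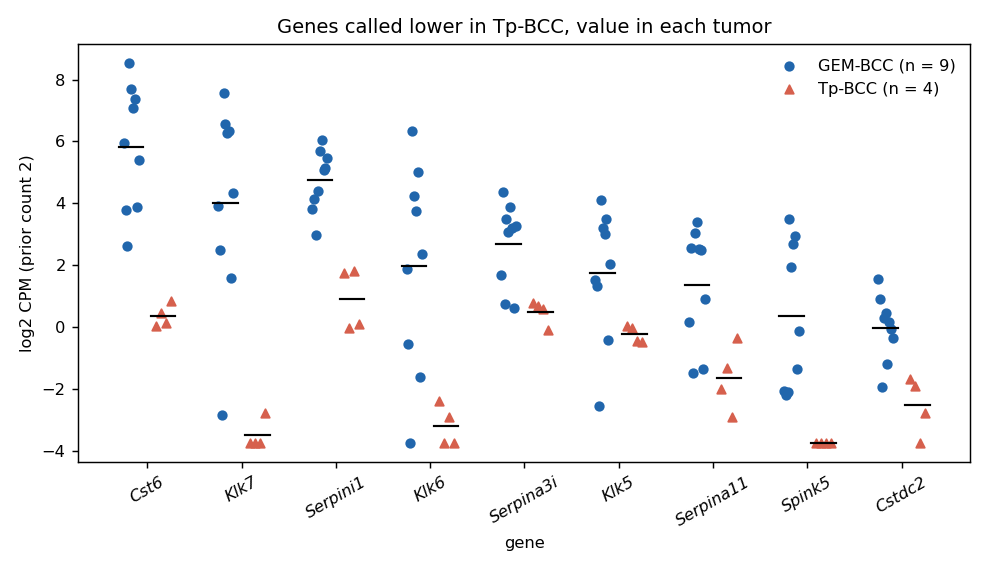
Log2 CPM (y axis, prior count 2) in each tumor for the 9 genes called lower in Tp-BCC (x axis), with circles for GEM-BCC (n = 9), triangles for Tp-BCC (n = 4) and a bar at the mean. Triangles lie below all circles for Cst6, Serpini1 and Spink5, and at least 1 circle falls among or below the triangles for the other 6.

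Among the 25 serpins, 3 fell, 1 rose and 21 did not pass, with a median log2 fold change of −0.71. Serpini1 (neuroserpin), an inhibitor of tissue plasminogen activator best known from neurons, had the smallest p-value of the 41 genes. It was at 14.0, 17.7, 7.75, 21.2, 51.5, 65.7, 34.0, 35.7 and 44.1 CPM in GEM1 to GEM9 and at 3.30, 0.900, 3.47 and 1.00 CPM in TP1 to TP4. No Tp-BCC tumor reached the lowest GEM-BCC tumor, and TP1 and TP3 were above TP2 and TP4. The log2 fold change was −3.89 ± 0.63 (SE, edgeR adjusted p = 7.30e-04). It was −3.27 without TP2 and TP4 and −5.08 without TP1 and TP3, past the call in both. Serpini1 was above its GEM-BCC median in GEM5, GEM6, GEM8 and GEM9. Of the 8 kallikreins, 0 were above theirs in GEM8 and GEM9, while 8 were in GEM5 and 4 in GEM6.

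Clade A, the secreted antitrypsin and antichymotrypsin serpins, had 10 members, of which 2 fell. Serpina3i, of the expanded mouse antichymotrypsin cluster, was at 1.47 to 20.5 CPM in GEM-BCC (median 9.10) and at 1.65, 1.54, 1.44 and 0.857 CPM in Tp-BCC (−2.68 ± 0.68, edgeR adjusted p = 0.0132), and it did not pass without TP2 and TP4 (adjusted p = 0.113). Serpina11, a serpin known mainly from liver, was at 0.285 to 10.6 CPM in GEM-BCC (median 5.54) and 0.177, 0.321, 0.0599 and 0.714 CPM in Tp-BCC (−3.79 ± 1.05, adjusted p = 0.0204), and its call was lost without TP1, without TP2, without TP2 and TP4 (0.0667) and without TP1 and TP3 (0.0848). In both genes GEM3 and GEM8 were the induced tumors at the Tp-BCC level, as for the kallikreins. Of the 9 liver and plasma protein genes listed, only Trf was tested, and it was higher in Tp-BCC. Its sum was 18.3 to 174 CPM in GEM-BCC and 356 to 793 CPM in Tp-BCC, and the liver-defining Alb and Ttr were not tested.

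Serpina3n, an acute-phase inhibitor of granzyme B and elastase, was at 4.32 to 18.2 CPM in 8 GEM-BCC tumors, at 58.7 CPM in GEM8 and at 4.83 to 10.8 CPM in Tp-BCC (−0.83 ± 0.68, adjusted p = 0.405). That value rested on GEM8: without it the log2 fold change was −0.035, and it was −0.047 by the DESeq2 Wald test. A pair of clade A genes outside the naming rule was picked after their values were seen. Serpina9, a serpin of germinal center B cells, ran from 0.132 CPM in GEM1 to 33.8 CPM in GEM2 against 0.500 to 1.08 CPM in Tp-BCC (−3.47 ± 1.27, adjusted p = 0.0656). Serpina12 (vaspin), a serpin that can inhibit Klk7, was at 0 to 23.6 CPM in GEM-BCC and at 8.71, 12.4, 10.8 and 9.35 CPM in Tp-BCC (1.05 ± 1.11, SE) and did not pass. With the GC trend removed the difference was 3.05 ± 1.29 (SE, adjusted p = 0.0867). The Tp-BCC tumors were thus alike in Serpina12, with an SD of 0.23 on the log2 scale against 2.92 in GEM-BCC.

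The other clade A genes, Serpina1a, Serpina1b, Serpina1c, Serpina3f and Serpina7, averaged 0.304 to 2.18 CPM in GEM-BCC and 0.176 to 1.09 CPM in Tp-BCC, and 0 of them passed. The antitrypsin copies cannot be read cleanly, since 47.4%, 19.2% and 58.5% of the 100-base words of Serpina1a, Serpina1b and Serpina1c occur in other genes (GENCODE vM21). The corresponding share was 2.33% for Serpina3i and 0% for the kallikreins of the block, Cst6, Spink5 and Serpina11.

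Clade B, the intracellular serpins, had 8 members, and 0 passed (median −0.67). Maspin (Serpinb5), an epithelial serpin without known protease inhibition, was at 74.9 to 196 CPM in GEM-BCC and at 121, 51.8, 109 and 113 CPM in Tp-BCC (−0.62 ± 0.30, edgeR adjusted p = 0.149). Serpinb6a, a cytosolic inhibitor of cathepsin G, was at 53.0 to 164 CPM and 43.0 to 66.9 CPM (−0.56 ± 0.29, adjusted p = 0.184). Serpinb1a, which inhibits neutrophil elastase, was at 6.03 to 16.1 CPM and 7.72 to 15.9 CPM (0.37 ± 0.30). Serpinb9, the granzyme B inhibitor, was at 4.32 to 11.6 CPM in GEM-BCC and split within Tp-BCC into 8.42 and 7.06 CPM in TP1 and TP3 and 1.86 and 3.00 CPM in TP2 and TP4. With all tumors it did not pass (−0.71 ± 0.39, adjusted p = 0.210), nor with the GC trend removed (−0.35, adjusted p = 0.330). It passed the test with TP1 and TP3 left out (−1.78, adjusted p = 0.00540). Serpinb2 (PAI-2) reached 2.84 CPM in GEM6 and was under 1 CPM in all but GEM6 and GEM7. The remaining members, Serpinb6b, Serpinb8 and Serpinb9b, had log2 fold changes from −1.50 to 0.19 and overlapped.

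Leukocyte proteases were read at low levels. Of 12 listed, among them the metallocarboxypeptidase Cpa3 of mast cells and otherwise serine proteases, 5 were tested, 0 passed, and their sum with Cpa3 was 1.25 to 8.48 CPM in GEM-BCC and 3.59 to 10.9 CPM in Tp-BCC. Granzyme A, granzyme B, neutrophil elastase (Elane) and cathepsin G (Ctsg) were not tested. Of 6 tested neutrophil markers 2 fell (S100a8 and S100a9), the defining Ly6g and Cxcr2 were not tested, and the sums were 5.33 to 24.6 and 10.5 to 18.1 CPM. Macrophage markers had 1 of 10 higher (Cd68), with sums of 89.7 to 293 and 219 to 318 CPM. Of 11 T and NK cell markers only Cd4 was tested, and it did not pass.

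Serpine2 (protease nexin 1), an inhibitor of thrombin and urokinase, was at 2.47 to 21.2 CPM in GEM-BCC and at 25.1, 16.5, 17.7 and 7.85 CPM in Tp-BCC and did not pass (1.03 ± 0.49, SE, edgeR adjusted p = 0.146). It passed with the GC trend removed (1.54, adjusted p = 0.0268) and without GEM6 (1.34, 0.0452). In a list of plasminogen and coagulation genes 13 of 15 were tested, of which 1 rose (S100a10) and 3 fell (Plat, Plg and tissue factor, F3). Plat, the tissue activator that Serpini1 also inhibits, went from 71.5 ± 27.3 to 32.3 ± 5.16 CPM (log2 fold change −1.15, adjusted p = 0.0161). Urokinase (Plau) was at 36.4 ± 14.2 and 60.5 ± 12.8 CPM and did not pass (adjusted p = 0.0896).

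Serpinh1 (Hsp47), the collagen chaperone of the endoplasmic reticulum that inhibits no protease, was the serpin that rose. It was at 1085, 607, 677, 599.9, 655, 932, 738, 983 and 777 CPM in GEM1 to GEM9 and at 1059, 1658, 1022 and 2132 CPM in TP1 to TP4. TP2 and TP4 were above every GEM-BCC tumor, and TP1 and TP3 were below GEM1. The log2 fold change was 0.91 ± 0.23 (SE, edgeR adjusted p = 0.0143), it was 0.62 with the GC trend removed (adjusted p = 0.0104), and it did not pass without TP2 (0.81, adjusted p = 0.0567), without TP4 (0.62, 0.0740) or without both (0.41, 0.281). Its substrates and their modifying enzymes did not follow one direction, with 1 of 10 higher (Col5a1) and 2 lower (Col1a1 and P4ha1). Fibroblast markers had 2 of 9 higher (Pdgfra and Pdgfrb) and 2 lower (Col1a1 and Dpt), and their sums overlapped at 12348 to 49495 and 16258 to 28797 CPM. Endothelial markers had 3 of 7 higher (Cdh5, Kdr and Emcn), while Pecam1, Tek, Vwf and Cldn5 did not pass. Their sums were 84.8 to 233 and 260.3 to 342 CPM without overlap. That gap rested on Cdh5, with means of 49.5 CPM in GEM-BCC and 121 CPM in Tp-BCC. The part of fibroblasts and endothelium in the Serpinh1 difference was not tested.

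The secreted serpins of stroma and plasma did not pass the test. Serpinf1 (PEDF), an antiangiogenic serpin without inhibitory activity, was at 78.7 to 500.4 CPM in GEM-BCC and 198, 271, 158 and 349 CPM in Tp-BCC (0.06 ± 0.36, edgeR adjusted p = 0.922). Serping1 (C1 inhibitor), which blocks the first complement proteases, was at 21.7 to 146 CPM and at 40.1, 49.6, 35.4 and 64.8 CPM (−0.34 ± 0.46, adjusted p = 0.634). Both groups overlapped for these genes, and GEM6 was the highest induced tumor in each. Serpind1 (heparin cofactor II) averaged 1.80 CPM and 0.664 CPM and did not pass.

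Inhibitors of other families moved both ways. Of 14 tested, 3 rose (Ecm1, Tfpi and Pi16) and 3 fell (Slpi, Spint2 and Itih2). Slpi, a secreted leukocyte elastase inhibitor of epithelia, averaged 8.99 ± 13.3 CPM in GEM-BCC and 0.470 ± 0.457 CPM in Tp-BCC (SD, edgeR adjusted p = 0.0187). Tfpi, the inhibitor of the tissue factor pathway, averaged 16.1 and 53.7 CPM without overlap (adjusted p = 7.71e-04), while tissue factor itself (F3) fell from 18.0 ± 3.17 to 8.11 ± 3.32 CPM (adjusted p = 0.0132).

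Levels can be ranked between genes per kilobase of transcript, with a single length per gene, which was known for 39 of the 41. The length was 718 bases for Serpinf1, 822 for Serpine2 and 833 for Serpinb6a. Their transcripts held 1733, 2111 and 1555 of the 100-base words, more than such lengths can hold. For Serpinb5 the length was 2551.5 bases and the words numbered 2573. For Cst6 the length was 2191.5 bases and the words numbered 3852, and some other genes differed in the same way. The ranks of Serpinf1, Serpine2, Serpinb6a and Cst6, among others, therefore depend on the length chosen and may be too high. In GEM-BCC the order began with Cst3 (725 CPM per kb), Serpinh1 (368), Serpinf1 (326), Cstb (107), Serpinb6a (103), Serpinb5 (59.6), Cst6 (51.7), Serping1 (34.9), Klk7 (28.5) and Klk6 (15.1). In Tp-BCC it began with Serpinh1 (689.8), Cst3 (403), Serpinf1 (339.9), Cstb (95.2), Serpinb6a (70.0), Serpinb5 (38.7), Serping1 (27.7) and Serpine2 (20.4). Cst6 stood at rank 24, Klk6 at 36, Klk7 at 38 and Spink5 last. Broadly expressed genes thus headed both orders, and the order among them was not tested.

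For 21 of the 41 genes every Tp-BCC value lay within the GEM-BCC range, against 19.8% of all genes.

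Tumors of 1 mouse could differ as much as tumors of different mice. Between GEM7 and GEM8 the median absolute difference over the 41 genes was 2.28 on the log2 scale, the largest of the 36 pairs of GEM-BCC tumors, although the same pair differed by a median of 0.32 over all tested genes. The 34 pairs from different mice ranged from 0.55 to 2.11, and GEM2 with GEM3 had 1.18. Klk7 was at 81.6 CPM in GEM7 and 2.94 CPM in GEM8, Cst6 at 167 and 14.6 CPM and Spink5 at 7.67 and 0.319 CPM. In all, 20 of the 41 genes were lower both in GEM3 than in GEM2 and in GEM8 than in GEM7. The same count was not taken over all tested genes, so it cannot be read as a trait of these families. Serpina3n went the other way between GEM7 and GEM8, with 4.77 and 58.7 CPM. GEM3 was likewise below GEM2 in Klk7 (0.0633 and 5.56 CPM) and in Serpina9 (0.190 and 33.8 CPM) but above it in Cst3 (1056 and 472 CPM). The suprabasal marker sum was 605 CPM in GEM7 and 193 CPM in GEM8, and 421 CPM in GEM2 and 163 CPM in GEM3. Its part in these differences was not tested.

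**Figure D5:**
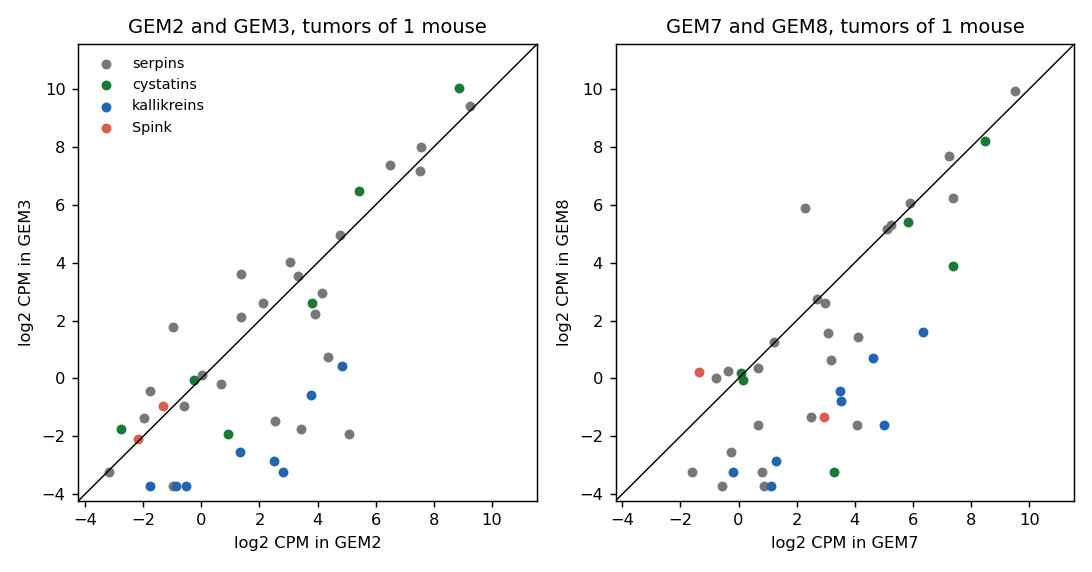
Log2 CPM (prior count 2) of 40 genes in GEM3 against GEM2 (left) and in GEM8 against GEM7 (right), the 2 pairs of tumors that shared a mouse, colored by family, with the line of equality. All 8 kallikreins lie below the line in both panels.

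The other 84 genes of these families were not tested. Of these, 28 had values in all tumors but too few counts, 38 had values for GEM-BCC only, 0 for Tp-BCC only and 18 for neither model. Several low ones, of which Serpinb3b and Spink10 were picked after their values were seen, were read mostly in 1 tumor or model. Stfa3, a stefin of neutrophils and epidermis, had 173 counts in GEM7 and at most 17 elsewhere, Serpinb3b 56 and at most 5, Csta1 (cystatin A, a cornified envelope protein) 32 and at most 10, and Serpinb3a (of the squamous cell carcinoma antigen group) 30 and 0. Klk1 and Cst7 (cystatin F of cytotoxic cells) did not exceed 7 counts in any tumor, Stfa2 had 11 counts in GEM7 and at most 2 elsewhere, and Stfa1 and Klk14 had values in GEM-BCC alone, at 0 and at most 6 counts. Spink10 was counted in Tp-BCC alone, with 4, 0, 3 and 1 counts in TP1 to TP4.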

How the data were processed

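RNA of 13 tumors was measured as RSEM expected counts per gene, as deposited by the authors. Per the submitters' processing notes, reads were aligned with Bowtie2 2.3.4.3 and counted with RSEM 1.3.1 on GRCm39. The authors' methods give RSEM a strand-specific setting. Why some genes lack a value in one model is not given in the sources used here. RSEM splits reads shared by several genes. No per-sample column was left unused.

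Expected counts were rounded, and genes with a value in all 13 tumors and at least 10 counts in at least 4 were kept. Models were compared in R 4.3.3 with edgeR 4.0.16 (TMM, robust quasi-likelihood F test, 2-sided, no covariate), with Benjamini-Hochberg adjustment over all 14390 tested genes. Calls required adjusted p-values under 0.05 together with a log2 difference beyond 2 either way, Tp-BCC relative to GEM-BCC. The SE of a fold is its size over the square root of F. Log2 CPM used a prior count of 2. For genes with 3 counts or fewer in every Tp-BCC tumor, pooled rates with an exact 95% binomial interval, or a bound at 3 counts per library, replace the fold. Intervals and floors cover counting error only. The statistics were tested on simulated data.

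The genes named are all that were called, the 10 that passed without the fold limit at smallest p-value (here 1), the 10 of highest mean log2 CPM and a written list of well-studied members. Of the 41, 1 is not reported here and was left out of the plots of single genes, although it entered every fit and count. Members, marker lists and partner lists were chosen with earlier results of these data known. Alternatives were DESeq2 1.42.0 size factors or its Wald test, no filter or a stricter one (10 tumors), missing values set to 0, counts summed per mouse, a GC trend removed (lowess, span 0.3, limma 3.58.1, GC content from GENCODE vM21) and each tumor left out. Leaving out TP2 with TP4, or TP1 with TP3, was added after seeing the data. GENCODE vM21 and RefSeq promoters are of GRCm38, so no coordinates of the counted genes are given from them.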

Additional observations from a re-analysis of the deposited data

Results flagged for a closer look

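Within each model, 50 sets of tumor values (25 named genes in 2 models) were examined for a tumor far from the others of its group, and 3 were found, where chance gives about 1 in 20. GEM3 was high in Cst3, at a log2 CPM of 10.04 against 8.16 to 9.03 in the other GEM-BCC tumors. TP2 was low in Serpinb5, at 5.70 against 6.77 to 6.92 in the other Tp-BCC tumors. TP4 was high in Klk7, at −2.77 against −3.73, which is 1 count against 0.

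Among the genes with values in GEM-BCC alone, which entered no comparison, 4 reached 10 counts in a tumor. Cst12 had 27 counts in GEM5 and at most 4 in the other GEM-BCC tumors, Cstdc6 had 19 in GEM7 and at most 3, Serpinb11 had 13 in GEM6 and at most 10, and Serpinb13, a serpin of differentiated keratinocytes, had 12 in GEM5 and at most 5.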

How the results depend on the processing

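The count of genes called lower in Tp-BCC, 9, was 7 to 12 under the other planned settings except the stricter filter (4, which tests fewer genes). Leaving out single tumors gave 5 to 12 lower calls, and 0 higher calls each time. Genes past an adjusted p of 0.05 numbered 5 to 12 lower and 0 to 2 higher in those fits, 4 lower with the stricter filter and 2 higher with the GC trend removed. Without a filter 2 genes were called higher and 3 passed as higher, which added Serpina3c and Spink10 with at most 11 counts. With TP2 and TP4 left out 2 genes passed and were called lower (Cst6 and Serpini1) and 0 passed as higher. With 2 Tp-BCC tumors the test has fewer samples, and with TP1 and TP3 left out it called 6. Without TP2 it called 5. Cst6, Serpini1, Serpina3i, Klk7 and Cstdc2 were called in all 13 fits that left out 1 tumor. DESeq2 and counts summed per mouse each gave 12 lower calls, with Klk8 and Klk10 past the threshold in both. The sums per mouse merged GEM3 and GEM8, the tumors of lowest kallikrein level, with GEM2 and GEM7.

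Folds that changed sign were those of genes that did not pass: Cstb (0.0742 with the GC trend removed, 0.0891 without TP1 and TP3), Klk11 (0.0138 with the GC trend removed) and Serpinf1 (−0.13 with the GC trend removed, −0.05 without GEM4, −0.002 without GEM7, −0.03 without TP2, −0.22 without TP4, −0.40 without TP2 and TP4; −0.2159 to 0.2821 with single tumors left out). The cause was not tested. No paired analysis was possible because the models share no mice and no replicate numbers.

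For genes at 3 counts or fewer in Tp-BCC, depth limits the size of the difference to a counting interval or a bound.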
